A study of Homo sapiens with 6 samples.

Results

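The 42 genes described here repair DNA double-strand breaks and crosslinks between DNA strands, or signal the presence of such damage. They were taken as a list of symbols, and all 42 were found among the 47470 genes in the count files. The list holds 21 genes of homologous recombination, 9 Fanconi genes, 7 genes of end joining, 4 checkpoint kinases and POLQ, the polymerase of theta-mediated end joining. All 42 passed the filter on low counts and were tested.

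A double-strand break can be resected to single-stranded tails, on which BRCA2 helps to build a protein filament that finds the sister chromatid as the template. It can instead be held by the Ku heterodimer and sealed directly by DNA ligase IV, which needs no template. The Fanconi proteins recognise crosslinked DNA, mark the FANCD2 and FANCI pair with ubiquitin and pass the lesion to recombination. Recombination is used mainly in S and G2 phase, when a sister chromatid exists, while end joining runs throughout the cell cycle.

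All libraries came from HEK293T, a cell line derived from human embryonic kidney. These cells express the large T antigen of the virus SV40, which binds RB proteins. One group was untreated (genotype field WT, treatment none), with 3 libraries. The other group received valproic acid (VPA), which inhibits histone deacetylases, at 1 mM for 1 day, also with 3 libraries, so that treatment was the labelled difference between the groups. The labels do not say whether libraries of a group came from separate cultures, so p-values measure the spread between these libraries, which may be technical. In bulk RNA, fewer cells in a cell cycle phase and less RNA per cell cannot be told apart.

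Counts on genes ranged from 18622267 to 18828495 per library, and 15298 genes were tested with edgeR's quasi-likelihood test after TMM normalization, with Benjamini-Hochberg adjustment over all of them. Normalized counts are TMM-normalized counts at the mean library size. Replicates spread little (biological coefficient of variation 3.83%), and shifts of a few percent could pass an adjusted p of 0.05. Of the kidney and epithelial markers, KRT18 averaged 1037 normalized counts in untreated cells and VIM 10739, while PAX8 was at 0 in every untreated library. Blood and endothelial markers summed to between 15.5 and 29.3 normalized counts per untreated library and to between 52.7 and 57.5 per VPA library, with PTPRC, CD3E, HBB and CDH5 at 0 in untreated cells. The 6 fibroblast markers summed to between 467 and 535 in untreated libraries and to between 1571 and 1748 in VPA libraries, mostly from COL1A1, with COL1A2 at 0 in untreated cells. Of the tested markers, 5 of 7 kidney and epithelial, 1 of 2 blood and endothelial and 4 of 5 fibroblast genes were called higher in VPA, and VIM (-0.27) and CDH2 (-0.37) were called lower. The part of such markers in the results below was not tested.

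VPA-treated cells had less RNA of 20 of the 42 repair genes and more of 4, relative to the typical gene. NBN, the subunit that brings the MRE11 nuclease to breaks, fell most, to 0.596 of its untreated level. NHEJ1, CHEK1, XRCC6 and BLM followed, while FANCF, RAD51B, LIG4 and RAD50 were higher. The other 18 genes did not pass the test. Of all tested genes, 30.0% were called lower, 32.9% higher and 62.9% in either direction, against 47.6% lower and 9.52% higher for the repair genes. Counts of calls by group below are to be read beside these shares. The median untreated level was 1119 normalized counts over the repair genes and 429 over all tested genes. Over all tested genes the share called lower rose from 12.3% under 500 counts to 68.9% at 2000 or more. The part of level in the difference was not tested. No repair gene reached a log2 fold change of 1 in size, a threshold that 12.0% of all tested genes passed upward and 0.503% downward. The median log2 fold change was -0.09 over the 42 genes and 0.0058 over all tested genes, and 32 of the 42 values lay below 0. All 3 VPA libraries lay below all 3 untreated ones for 22 repair genes and above them for 5, against 31.0% and 34.8% of all tested genes.

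**Figure D1:**
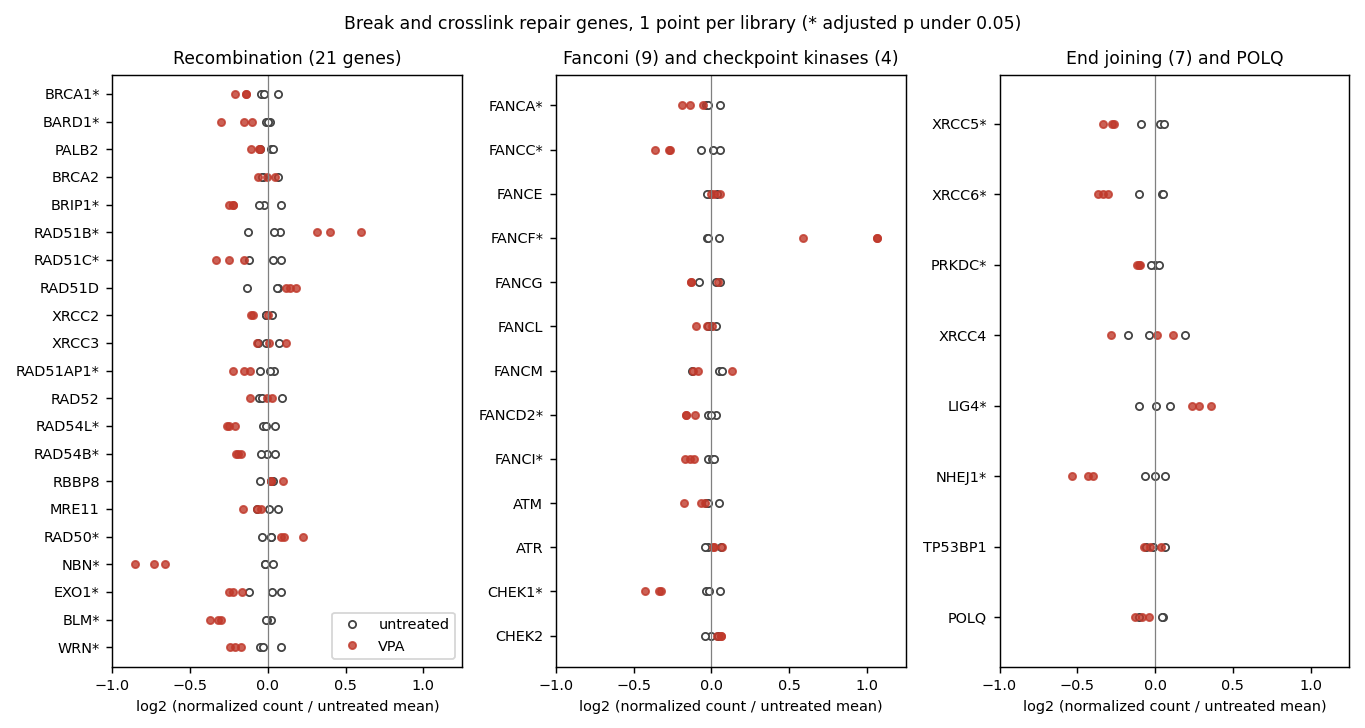
Normalized count of each of the 42 repair genes in each library, on the x axis as the log2 ratio to the mean of the 3 untreated libraries; open circles are untreated libraries, red circles VPA libraries, and an asterisk marks an adjusted p under 0.05. NBN lies furthest to the left, between -0.85 and -0.66, and FANCF and RAD51B lie furthest to the right.

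Directions in these data depend on what is held constant between libraries. TMM set the median of all tested genes at 0.0058, whereas scaling to library totals moved that median to 0.14 and scaling to ribosomal protein genes to 0.28. Under upper quartile scaling 7 repair genes were called higher and 12 lower, under library totals 11 and 8, and under ribosomal protein scaling 26 and 2. Over all tested genes the calls went from 5037 higher and 4591 lower under TMM to 9250 higher and 854 lower under ribosomal protein scaling. Since each of these scalings shifts all genes of a library alike, the median of the 42 genes lies 0.098 below that of all tested genes under every one of them. Directions below are therefore relative to the typical gene. NBN and NHEJ1 kept their lower call, and RAD51B and FANCF their higher call, under each of the 15 alternative scalings, filters, tests and left-out libraries.

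**Figure D2:**
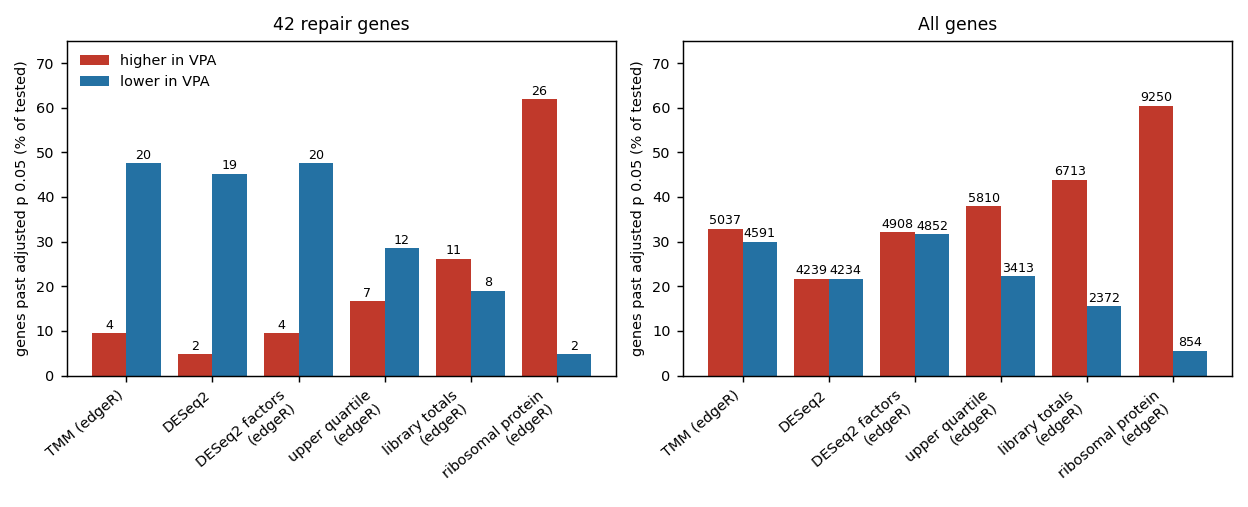
Share of genes past an adjusted p of 0.05 (y axis, % of tested genes) for the 42 repair genes at left and all tested genes at right, under 6 ways of scaling or testing; numbers above the bars are genes. Red bars are genes higher in VPA and blue bars genes lower, and the repair genes turn from 4 higher and 20 lower under TMM to 26 higher and 2 lower under ribosomal protein scaling, while all genes go from 5037 higher and 4591 lower to 9250 higher and 854 lower.

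The repair genes differed widely in level. On the RPKM scale, taken with the length of the reference (MANE Select) transcript, XRCC6 stood highest at 627 in untreated cells, followed by its Ku partner XRCC5 at 209 and by PRKDC, the DNA-dependent kinase they recruit, at 85.7. FANCI at 63.6 and EXO1 at 47.0 came next. BRCA2 stood at 2.96, LIG4 at 2.51, RAD51D at 2.40 and FANCF at 0.26, the lowest of the 42. The standard error of the log2 fold change was largest for FANCF, at 0.24. It did not follow level throughout, at 0.038 for FANCI and 0.046 for the more abundant XRCC6.

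Promoter sequence was compared because many S phase genes carry E2F sites close to their start. RefSeq promoter windows on GRCh38.p14, from 250 bases before to 50 after the start, were matched for 36 of the 42 genes. None was matched for NBN, WRN, RAD54B, PRKDC, FANCI and XRCC5, all of them called lower. Windows thus cover only 14 of the 20 genes called lower, without the largest fall, but every uncalled or higher gene. Each gene had 1 window at 1 RefSeq start, and its other starts were not searched. For some genes, among them RAD51B, RAD52, CHEK1, MRE11 and RBBP8, that start lay inside the gene span and not at its outer end. A start at the outer end need not be the one used, and that of BRCA1 lies 82 bases from the NBR1 start. The E2F words TTTCCCGC, TTTGGCGC, TTTCGCGC and TTTGCCGC, searched on both strands, were present in 6 of the 36 windows (16.7%), in 5.35% of windows of tested genes and in 3.33% of all 27305 windows. By call, 5 of the 14 genes called lower held one (EXO1, FANCA, FANCC, FANCD2 and XRCC6), 1 of the 18 uncalled genes did (XRCC2), and 0 of the 4 genes called higher did. A match is a description of letters and not a bound site. The following stretches show the words, in capitals, in the 3 called genes with the word nearest the start or present more than once and in XRCC2, each read 5′ to 3′ along the gene. EXO1 is chr1:241848148-241848215 on the plus strand, FANCD2 chr3:10026375-10026442 on the plus strand, FANCC chr9:95317710-95317941 on the minus strand and XRCC2 chr7:152676113-152676180 on the minus strand. Words on the opposite strand appear as their reverse complement, as GCGGGAAA in FANCD2 and XRCC2.
EXO1: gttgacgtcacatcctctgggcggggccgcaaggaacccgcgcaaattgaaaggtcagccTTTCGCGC
FANCD2: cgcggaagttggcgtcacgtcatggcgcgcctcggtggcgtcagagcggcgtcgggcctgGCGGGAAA
FANCC: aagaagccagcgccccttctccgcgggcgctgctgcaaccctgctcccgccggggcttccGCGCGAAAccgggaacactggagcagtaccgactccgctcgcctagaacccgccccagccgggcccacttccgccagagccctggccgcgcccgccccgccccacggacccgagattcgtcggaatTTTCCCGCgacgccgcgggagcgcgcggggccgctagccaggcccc
XRCC2: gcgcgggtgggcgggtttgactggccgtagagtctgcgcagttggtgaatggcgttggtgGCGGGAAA

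The GC-box word GGGCGG, searched on both strands, was present in 13 of the 14 windows of genes called lower, in 13 of the 18 uncalled and in 1 of the 4 called higher, against 69.7% of windows of tested genes. The CCAAT word was present in 7 of the 14 called lower, in 8 of the 18 uncalled and in 1 of the 4 called higher (FANCF), against 36.1% of windows of tested genes. The ETS word CCGGAAG was present in 2 of the 14 called lower, in 9 of the 18 uncalled and in 2 of the 4 called higher. Its share among windows of tested genes was 18.1%. Other words that were searched are not described here. The E2F words, GGGCGG and CCAAT do not contain one another, though neighbouring matches can share bases. The last 100 bases before the start are shown for 3 genes called lower and 2 called higher. GGGCGG and CCAAT (or their reverse complements CCGCCC and ATTGG) are in capitals. These genes were picked by hand without a rule, and FANCF, which held CCAAT, is not among them. The stretches are examples and do not compare the groups. BLM is chr15:90717246-90717345 and CHEK1 chr11:125626129-125626228, both on the plus strand. NHEJ1 is chr2:219160816-219160915 on the minus strand, LIG4 chr13:108218350-108218449 on the minus strand and RAD50 chr5:132556877-132556976 on the plus strand.
BLM: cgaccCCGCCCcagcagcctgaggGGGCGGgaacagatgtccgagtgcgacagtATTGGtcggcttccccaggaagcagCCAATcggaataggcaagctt
CHEK1: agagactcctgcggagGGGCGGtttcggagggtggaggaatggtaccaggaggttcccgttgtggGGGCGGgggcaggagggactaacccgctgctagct
NHEJ1: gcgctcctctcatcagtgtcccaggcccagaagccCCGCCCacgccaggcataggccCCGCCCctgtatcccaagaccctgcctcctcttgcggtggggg
LIG4: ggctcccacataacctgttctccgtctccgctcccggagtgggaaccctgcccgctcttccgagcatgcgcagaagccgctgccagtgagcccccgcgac
RAD50: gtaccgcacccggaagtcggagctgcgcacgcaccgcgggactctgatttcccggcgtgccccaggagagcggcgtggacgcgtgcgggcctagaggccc
LIG4 and RAD50 held neither word in these 100 bases, while RAD50 held GGGCGG elsewhere in its window.

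The end resection nucleases and helicases, which open a break for recombination, held both the largest fall and a rise. Of these 7 genes 4 were called lower and 1 higher, with a median log2 fold change of -0.21 that turned to 0.061 under ribosomal protein scaling. NBN (chr8:89933331-89984667) had 1567, 1565 and 1625 normalized counts untreated, and 879, 956 and 1001 after VPA. The highest VPA library was thus far below the lowest untreated one. The means were 1586 ± 34.0 and 945 ± 61.6 (SD, n = 3 each), for a log2 fold change of -0.75 ± 0.05 (SE) with an edgeR adjusted p of 4.57e-11. BLM, the Bloom helicase that dissolves recombination intermediates, had 1665, 1637 and 1633 normalized counts untreated and 1334, 1272 and 1318 after VPA. Its groups were also apart, and its log2 fold change was -0.33 ± 0.04 with an edgeR adjusted p of 1.39e-06. EXO1, the exonuclease of long-range resection, had 2787, 3098 and 3226 normalized counts untreated and 2552, 2604 and 2707 after VPA. Its lowest untreated library lay just above its highest VPA library, and its log2 fold change was -0.21 ± 0.05 with an edgeR adjusted p of 0.000676.

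WRN, the Werner helicase and nuclease, was called lower at -0.21 ± 0.06 on the log2 scale. RAD50, the ATPase that tethers broken ends, was called higher, with 1794, 1722 and 1798 normalized counts untreated and 1904, 1881 and 2069 after VPA. Its groups did not overlap, and its log2 fold change was 0.14 ± 0.05 with an edgeR adjusted p of 0.0126. That call was lost without the untreated replicate 2 (log2 fold change 0.11) and without the VPA replicate 3 (0.094), and with DESeq2, which gave RAD50 0.12 and an adjusted p of 0.0936. A same-strand gene without a symbol shares 76.9% of the annotated exon bases of RAD50, so that its counts are uncertain. MRE11, the nuclease itself, was not called, at 1551 ± 71.8 normalized counts untreated and 1457 ± 61.6 after VPA, with a log2 fold change of -0.09 ± 0.05. Without the untreated replicate 2, MRE11 was at -0.13 and passed the test. RBBP8, which activates MRE11 and is also named CtIP, had 1520, 1436 and 1510 normalized counts untreated and 1508, 1508 and 1591 after VPA. The RBBP8 values overlapped, with a log2 fold change of 0.045 ± 0.05.

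The BRCA mediators, which prepare the break for strand exchange, gave 3 lower calls among 5 genes, with a median of -0.16 that turned to 0.11 under ribosomal protein scaling. BRIP1, the helicase that binds BRCA1, had 936, 868 and 848 normalized counts untreated and 758, 758 and 742 after VPA. Every VPA library was below every untreated library, and the log2 fold change was -0.23 ± 0.05 with an edgeR adjusted p of 0.000827. BARD1, the partner that forms a ubiquitin ligase with BRCA1, had 530, 520 and 525 normalized counts untreated and 472, 488 and 426 after VPA. It did not overlap either, with a log2 fold change of -0.18 ± 0.06 and an edgeR adjusted p of 0.0172, but without the VPA replicate 3 the value was -0.13 and the call was lost. BRCA1 (chr17:43044295-43170327) had 1934, 1956 and 2080 normalized counts untreated and 1715, 1807 and 1804 after VPA. Its groups were apart by a small margin, with a log2 fold change of -0.16 ± 0.05 and an edgeR adjusted p of 0.00322.

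BRCA2, which mediates filament formation on resected DNA, had 648, 694 and 647 normalized counts untreated and 683, 635 and 661 after VPA. These values were intermixed, and its log2 fold change was -0.0072 ± 0.06. PALB2, the bridge between BRCA1 and BRCA2, was not called at -0.074 ± 0.06, although its 3 VPA libraries were all below the 3 untreated ones.

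Among the BCDX2 and CX3 paralogs and the accessory factors, which stabilise and remodel the filament, 4 of 9 genes were called lower and 1 higher, with a median of -0.069 that turned to 0.063 under library totals and to 0.20 under ribosomal protein scaling. RAD51B, a paralog in the BCDX2 complex, had 122, 141 and 138 normalized counts untreated and 167, 176 and 202 after VPA. All VPA libraries were above all untreated ones, with means of 134 ± 10.1 and 182 ± 18.2 (SD, n = 3 each), for a log2 fold change of 0.44 ± 0.11 and an edgeR adjusted p of 0.000971. RAD51C, a paralog that sits in the same complex, had 1106, 1235 and 1275 normalized counts untreated and 954, 1013 and 1084 after VPA. It went the other way, with its highest VPA library just below its lowest untreated one, and its log2 fold change was -0.24 ± 0.06 with an edgeR adjusted p of 0.00101.

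RAD54L, a motor that remodels chromatin during strand invasion, had 1824, 1732 and 1754 normalized counts untreated and 1526, 1476 and 1488 after VPA. Its groups were well apart, at -0.24 ± 0.04 on the log2 scale with an edgeR adjusted p of 6.16e-05. A limit applies, since 19.9% of RAD54L exon bases overlap LRRC41 on the opposite strand, which was itself lower at -0.73. RAD54B, the related motor, was called at -0.19 ± 0.07 and RAD51AP1, which stimulates strand pairing, at -0.16 ± 0.05. RAD54B shares 66.0% of its exon bases with FSBP on the same strand, which was at 0 in all libraries. The RAD54B call was lost without the untreated replicate 3 (-0.17) and without the VPA replicate 2 (-0.18), and with DESeq2 (-0.21, adjusted p 0.0707).

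The other 4 genes of this group were not called. RAD51D, the third BCDX2 paralog described, had 447 ± 34.4 normalized counts untreated and 495 ± 10.9 after VPA, with no overlap, a log2 fold change of 0.15 ± 0.07 and an edgeR adjusted p of 0.0596. Without the untreated replicate 1 it was at 0.18 and passed. XRCC2 was at -0.069 ± 0.04, with overlapping groups. XRCC3, the partner of RAD51C in the CX3 complex, had 1500, 1416 and 1368 normalized counts untreated and 1551, 1435 and 1361 after VPA, which overlapped throughout at 0.021 ± 0.05. Of its exon bases 76.7% lie opposite KLC1, so that the XRCC3 counts are uncertain. RAD52, an annealing factor, was at -0.031 ± 0.07.

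The Fanconi core complex and its anchor FANCM form and hold the ubiquitin ligase at a crosslink. Their 7 genes gave 2 lower calls and 1 higher call. The share called lower, 28.6%, was near the 30.0% of all tested genes, and the share called higher, 14.3%, was below 32.9%. The median of -0.041 turned to 0.024 under upper quartile scaling, 0.090 under library totals and 0.23 under ribosomal protein scaling. FANCC, a structural core subunit, had 930, 1014 and 980 normalized counts untreated and 805, 810 and 756 after VPA. Its groups were well apart, at -0.30 ± 0.05 on the log2 scale with an edgeR adjusted p of 4.83e-05. FANCA, the subunit most often mutated in Fanconi anaemia, had 2809, 2992 and 2826 normalized counts untreated and 2769, 2614 and 2525 after VPA. The gap between its groups was narrow, the log2 fold change was -0.13 ± 0.04 and the edgeR adjusted p 0.0179. FANCA lost its call without the untreated replicate 2 (-0.10), the VPA replicate 2 (-0.12) or the VPA replicate 3 (-0.096), and 19.6% of its exon bases lie opposite ZNF276, which was lower at -0.39.

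FANCF, an adaptor of the core complex, had 16.6, 15.7 and 15.7 normalized counts untreated and 33.5, 24.1 and 33.5 after VPA. Its groups did not overlap, and its log2 fold change was 0.92 ± 0.24 with an edgeR adjusted p of 0.00219. Without the VPA replicate 2 the value was 1.06. At so few counts the size is poorly known, and 9.57% of its exon bases lie opposite GAS2, which averaged 1.74 normalized counts untreated and 1.28 after VPA. FANCM, the DNA translocase, had 427, 431 and 377 normalized counts untreated and 388, 379 and 451 after VPA, fully intermixed at -0.020 ± 0.08. FANCE, FANCG and FANCL, the last being the ligase subunit, were not called either, with log2 fold changes between -0.069 and 0.022.

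Both genes of the FANCD2 and FANCI pair, the substrate that the ligase marks, were called lower. Neither was called under upper quartile scaling or library totals, the latter giving -0.013 for FANCD2 and -0.0085 for FANCI. Under ribosomal protein scaling both were called higher, at 0.13 each. FANCD2 had 3641, 3774 and 3702 normalized counts untreated and 3303, 3444 and 3311 after VPA. FANCI had 5551, 5643 and 5711 normalized counts untreated and 5016, 5210 and 5114 after VPA. Neither gene overlapped between groups, and both had a log2 fold change of -0.14 ± 0.04, with edgeR adjusted p-values of 0.00308 and 0.00322. FANCD2 has partial copies elsewhere in the genome, as does CHEK2, and reads that match several places were not counted, so both are uncertain to that extent.

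Of the 4 checkpoint kinases 1 was called lower and 0 higher, against 30.0% and 32.9% of all tested genes. CHEK1, the effector kinase activated at stalled forks, had 1132, 1206 and 1147 normalized counts untreated and 929, 864 and 920 after VPA. The groups were well apart, at -0.36 ± 0.05 on the log2 scale with an edgeR adjusted p of 2.65e-06, and at -0.090 under ribosomal protein scaling, where the call was lost. CHEK2, the effector kinase downstream of ATM, was not called, at 1022 ± 30.4 normalized counts untreated and 1060 ± 11.0 after VPA. ATR, the kinase that activates CHEK1, had 1247, 1180 and 1165 normalized counts untreated and 1205, 1212 and 1254 after VPA, which overlapped at 0.031 ± 0.05. ATM, the kinase that senses breaks, was not called at -0.094 ± 0.05, with all VPA libraries below the untreated ones.

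Classical end joining gave 4 lower calls and 1 higher among 6 genes, with a median of -0.20 that turned to 0.073 under ribosomal protein scaling. NHEJ1, also named XLF, which aligns the ends for ligation, had 820, 896 and 857 normalized counts untreated and 592, 651 and 637 after VPA. All VPA libraries were far below all untreated ones, with means of 858 ± 38.0 and 627 ± 30.7 (SD, n = 3 each), for a log2 fold change of -0.45 ± 0.06 and an edgeR adjusted p of 6.09e-07. A same-strand protein-coding gene without a symbol shares 19.5% of NHEJ1 exon bases. XRCC6 (Ku70), the most abundant of the 42, had 23219, 25745 and 25820 normalized counts untreated and 19306, 19743 and 20177 after VPA. Its log2 fold change was -0.34 ± 0.05, with no overlap and an edgeR adjusted p of 1.76e-06. XRCC5 (Ku80) was called at -0.29 ± 0.04 and PRKDC at -0.10 ± 0.04. PRKDC lost its call without any 1 of 4 libraries, the untreated replicate 2 or the VPA replicates 1, 2 or 3, with values between -0.11 and -0.098.

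LIG4, the ligase that closes the break, was called higher, with 187, 174 and 199 normalized counts untreated and 240, 227 and 220 after VPA. Its groups did not overlap, and its log2 fold change was 0.29 ± 0.09 with an edgeR adjusted p of 0.00638, while DESeq2 gave 0.27 and an adjusted p of 0.0799. XRCC4, the scaffold bound to LIG4, had 171, 156 and 201 normalized counts untreated and 145, 177 and 191 after VPA, intermixed at -0.041 ± 0.11. TP53BP1, which shields ends from resection, had 2128, 2197 and 2314 normalized counts untreated and 2105, 2161 and 2273 after VPA. It overlapped throughout at -0.022 ± 0.05, and 28.8% of its exon bases lie opposite TUBGCP4, which was lower at -0.27. POLQ had 1114, 1003 and 1110 normalized counts untreated and 984, 1046 and 1016 after VPA, with overlap and a log2 fold change of -0.083 ± 0.05. Without the untreated replicate 2 the POLQ value was -0.14 and passed the test.

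The recombination set and the end joining set did not separate in direction. Of all tested genes 30.0% were called lower and 32.9% higher. Among recombination genes 11 of 21 were called lower and 2 higher, with a median log2 fold change of -0.16 and a range from -0.75 to 0.44. Among end joining genes 4 of 7 were called lower and 1 higher, with a median of -0.10 and a range from -0.45 to 0.29. The Fanconi set gave 4 lower and 1 higher of 9 genes, with a median of -0.069. Under library totals the medians were -0.033, 0.027 and 0.062 in that order, and under ribosomal protein scaling 0.11, 0.17 and 0.20, so that the sign of each depended on the scaling. No test was made between these short lists. By library, the median log2 ratio to the untreated mean lay between -0.013 and 0.014 in untreated and between -0.16 and -0.10 in VPA libraries for recombination, and between -0.056 and 0.057 against -0.27 and -0.097 for end joining.

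**Figure D3:**
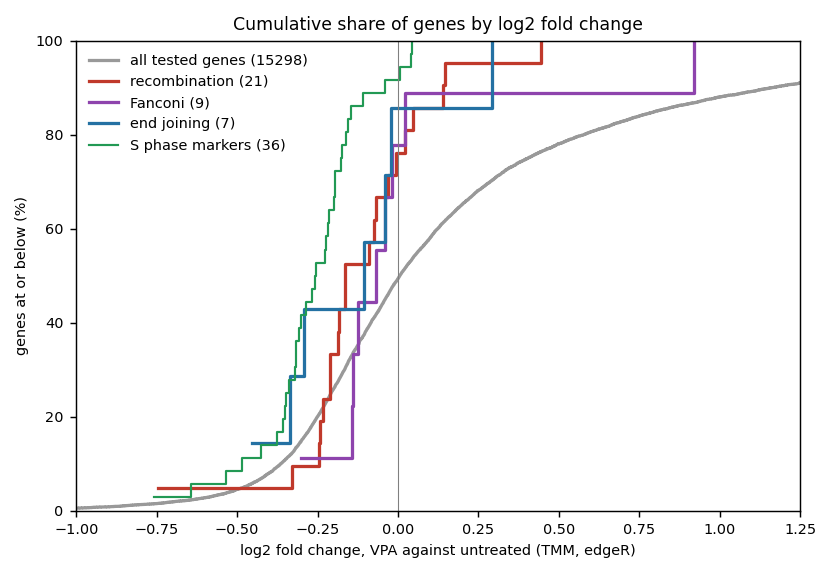
Cumulative share of genes (y axis, %) at or below each log2 fold change of VPA against untreated (x axis, TMM scaling) for all 15298 tested genes in grey, the 21 recombination, 9 Fanconi and 7 end joining genes, and 36 S phase markers in green. The repair curves cross each other and lie between the S phase curve and the all-gene curve over much of the range below 0, with few repair genes above 0.25.

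Ratios of counts within a library do not depend on any scaling between libraries. For 14 pairs of repair genes that work in 1 complex or step, chosen after their values were seen, the ratio was taken in each library. The ratio of NBN to RAD50 was 0.87, 0.91 and 0.90 in untreated libraries and 0.46, 0.51 and 0.48 in VPA libraries, a difference of -0.89 on the log2 scale. The ratio of NBN to MRE11 was 0.97, 1.06 and 1.04 untreated and 0.63, 0.65 and 0.67 after VPA. That of MRE11 to RAD50 was 0.90, 0.86 and 0.87 untreated and 0.73, 0.79 and 0.73 after VPA. All 3 ratios within the MRE11-RAD50-NBN complex were thus lower in every VPA library than in any untreated one. They are not separate observations, since each follows from the others, and those with RAD50 rest on its uncertain counts. In the BCDX2 complex the ratio of RAD51B to RAD51C was 0.11 in each untreated library and 0.17, 0.17 and 0.19 in VPA libraries, and RAD51D to XRCC2 differed by 0.22 on the log2 scale.

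For the effector kinases, CHEK1 to CHEK2 was 1.11, 1.21 and 1.09 untreated and 0.89, 0.81 and 0.86 after VPA. LIG4 to XRCC4 was 1.10, 1.11 and 0.99 untreated and 1.66, 1.28 and 1.16 after VPA, whereas NHEJ1 to XRCC4 differed by -0.41 on the log2 scale. ATM to ATR differed by -0.13. The Ku subunits stayed close to 1 ratio, with XRCC5 to XRCC6 between 0.526 and 0.536 untreated and between 0.544 and 0.553 after VPA. These 10 pairs had no overlap between groups, though some of them share a gene. No test is given, since the pairs were chosen after these values were seen, and single genes without overlap are common here, at 31.0% of all tested genes downward and 34.8% upward. The share among other pairs of genes was not computed. Overlap was seen for BRCA1 to BARD1 (0.022 on the log2 scale), BRCA2 to PALB2 (0.067), RAD51C to XRCC3 (-0.26) and FANCD2 to FANCI (-0.0043).

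**Figure D4:**
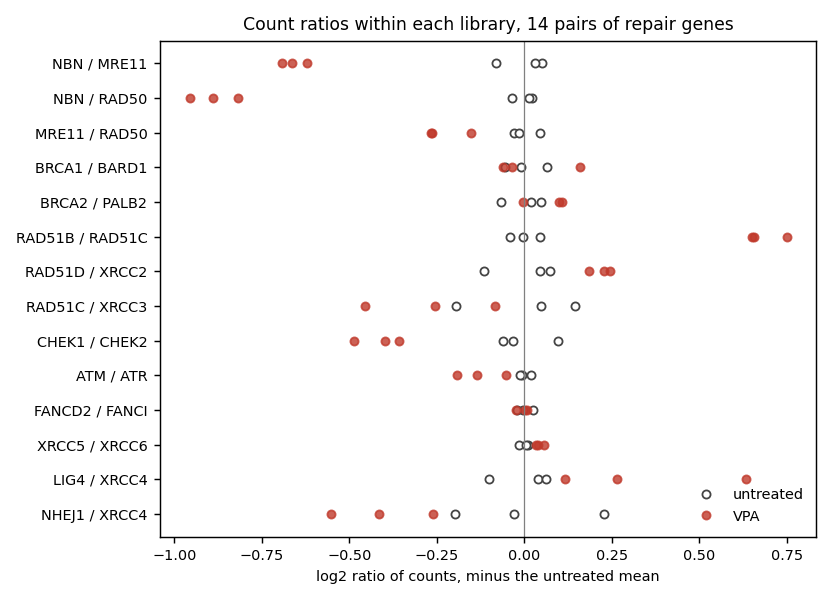
Log2 ratio of the counts of 2 repair genes within each library, minus the mean of the 3 untreated libraries (x axis), for 14 pairs; open circles are untreated and red circles VPA libraries. NBN to RAD50 lies furthest left and RAD51B to RAD51C furthest right, while FANCD2 to FANCI stays near 0 in both groups.

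Other genes of these pathways, taken as lists, gave similar counts. Of 42 tested further recombination and Fanconi genes, 19 were called lower and 5 higher, with a median of -0.077 that turned to 0.055 under library totals and 0.19 under ribosomal protein scaling. FAAP24, which anchors the Fanconi core with FANCM, went from 221 ± 10.6 to 121 ± 10.9 normalized counts, at -0.86 ± 0.10 on the log2 scale. SWSAP1, a subunit of the Shu complex, was at -0.85, MCM9, a helicase of recombination, at -0.70, and FAAP100, a core subunit, at -0.66, and these 4 stayed lower under library totals and ribosomal protein scaling. The calls upward included DMC1, the meiotic recombinase, at 0.33, and UBE2T, the ubiquitin-conjugating enzyme of the Fanconi ligase, at 0.25.

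Of 19 further end joining and shieldin genes 10 were called lower and 3 higher, with a median of -0.15 that turned to 0.12 under ribosomal protein scaling. LIG3, the ligase of alternative end joining and of mitochondria, had 3095, 3181 and 3187 normalized counts untreated and 1728, 1761 and 1725 after VPA. Its groups were far apart, with a log2 fold change of -0.86 ± 0.04 and an edgeR adjusted p of 9.5e-14. SHLD1, a shieldin subunit, was at -0.58, while MAD2L2, another shieldin subunit, was called higher at 0.25. Of 19 genes of break signalling 11 were called lower and 2 higher, with a median of -0.14 that turned to 0.13 under ribosomal protein scaling. HUS1, a subunit of the checkpoint clamp, at -0.50, KAT5, an acetyltransferase that acts on ATM, at -0.42, and ABRAXAS1, a scaffold of the BRCA1-A complex, was higher at 0.45.

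Cell cycle genes moved in the same data. Of 36 tested S phase markers 32 were called lower and 0 higher by edgeR, with a median log2 fold change of -0.26, and DESeq2 also called 32 lower and 0 higher. Of 40 G2 and M markers 28 were called lower and 1 higher, with a median of -0.25. Under ribosomal protein scaling these medians turned to 0.014 and 0.026. UNG, a base excision glycosylase among the S phase markers, was at -0.76, CCNE2, the cyclin of S phase entry, at -0.64, and TYMS, the thymidylate synthase, at -0.53. The summed level of the S phase list was between 144711 and 151886 normalized counts in untreated libraries and between 119796 and 121444 in VPA libraries. That of the G2 and M list was between 126023 and 130626 and between 111943 and 113837. The part of cell cycle phase in the results on repair genes was not tested. Of 26 regulators of the E2F, RB and DREAM proteins 7 were called higher and 13 lower, among them the inhibitors CDKN1C at 1.03, CDKN1A at 0.66 and CDKN1B at -0.40, the cyclin CCND2 at 0.68 and E2F1 at -0.33, and the median of -0.20 turned to 0.073 under ribosomal protein scaling. E2F words were present in 16 of 28 promoter windows of S phase markers (57.1%) and in 3 of 35 of G2 and M markers (8.57%).

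Gene span and level give further context. All tested genes that span at least 120 kb were called higher in 53.2% and lower in 16.5%, whereas of the 9 repair genes of that span 1 was called higher, RAD51B, and 5 lower. BRCA1 was among these 5 by its RefSeq span of 126 kb, which depends on the start used. Of the 11 repair genes that span 20 to 60 kb 7 were called lower and 0 higher, against 33.9% and 30.0% of all tested genes of that span by edgeR. From 60 to 120 kb 8 of 17 were called lower and 1 higher, against 26.9% and 37.7% of all. Under 20 kb 0 of 5 were called lower and 2 higher, FANCF and LIG4, against 33.3% and 26.2% of all. By level, 7 of the 8 repair genes with at least 2000 normalized counts were called lower, against 68.9% of all tested genes at that level. In the class from 1000 to 2000 counts 6 of 16 were lower, against 46.2% of all. From 500 to 1000 counts 5 of 8 were lower and 0 higher, against 35.8% and 28.2%, and under 500 counts 2 of 10 were lower and 3 higher, against 12.3% and 45.3%. Over all tested genes the share called lower thus increased with each class of level, which it did not over the repair genes.

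By the RefSeq start used for each gene, several repair genes have a gene read in the opposite direction whose start lies within 1000 bases. Other starts of the same genes were not compared, so a shared promoter in these cells is not shown. NBR1, an autophagy receptor, was called lower at -0.34, and its start lies 82 bases from the BRCA1 start used here (chr17:43170327). DESI1 beside XRCC6 was lower at -0.27, in the same direction as its neighbour. ANKRD49 beside MRE11 (-0.31), DCTN5 beside PALB2 (-0.29), NPAT beside ATM (-0.15) and TMEM167A beside XRCC4 (-0.15) were called lower while the repair gene was not called. MAP1A, a microtubule-associated protein beside TP53BP1, was higher at 0.51, while TP53BP1 was not called. ABHD13 beside LIG4 (0.067) and FERRY3 beside RAD51AP1 (0.10) were not called, although the repair gene was.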

How the data were processed

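The 3 untreated and 3 VPA libraries were used. Per the paper's methods, the authors cleaned reads with SOAPnuke, mapped them to hg38 with STAR and obtained a count per gene with htseq-count. They deposited these raw counts without normalization. The submitters' processing notes name STAR 2.7.10b and HTSeq 2.0.1. The libraries were made with a strand-specific kit. How counting treated strand, and which annotation it used, are not given in the sources used here. The 5 summary lines, which name no gene, were left out. Reads off any gene were 6.80% to 7.69%, and reads without a unique place, which lower genes with near-identical copies, 2.81% to 2.92%.

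Differential expression was tested in edgeR 4.0.16 (R 4.3.3) with TMM, filterByExpr (count minimum 10), robust quasi-likelihood fit on condition, prior count 0.125, Benjamini-Hochberg adjustment over all tested genes. Calls required an adjusted p under 0.05. Replicates of a group differed by more than sampling noise (chi-square per gene 1.62 to 4.80), so each counted once. Alternatives were DESeq2 1.42.0, other scalings, filters, a replicate block, a prior count of 2, an adjusted p of 0.01 and leaving out each library. The fits were tested on simulated counts. Span and coordinates are from RefSeq on GRCh38.p14, and transcript lengths and exon overlaps from GENCODE.

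The members and lists were chosen with earlier results of these data known. Named genes were, per role, the 3 called with the largest change and the least changed, up to 4 per direction from each other list, and divergent neighbours. Some items are not reported here.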

Additional observations from a re-analysis of the deposited data

How the results depend on the processing

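Scaling moved the most results. With DESeq2, 2 repair genes were called higher, and the recombination and Fanconi medians were -0.19 and -0.094. Under upper quartile scaling 7 were higher and 12 lower, with medians of -0.099 for recombination, -0.039 for end joining and -0.0042 for Fanconi genes. Under library totals 11 were higher and 8 lower, 1 of them past a log2 fold change of 1, and the medians were -0.033, 0.027 and 0.062, while over all genes 2372 were lower, 38 of them past the fold. FANCA (0.0063), PRKDC (0.027) and TP53BP1 (0.11) changed sign there among genes called under either scaling, and PALB2, BRCA2, XRCC2, RAD52, MRE11, ATM, FANCG, FANCL, FANCM, XRCC4 and POLQ did so without a call under either. Under ribosomal protein scaling 26 were higher, 1 past the fold, and 2 lower, with medians of 0.11, 0.17 and 0.20, and over all genes 9250 were higher and 854 lower, 17 past the fold.

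Under ribosomal protein scaling the sign also changed among genes called under either scaling, with the value in brackets, for BRCA1 (0.11), BARD1 (0.087), PALB2 (0.20), BRCA2 (0.26), BRIP1 (0.039), RAD51C (0.027), XRCC2 (0.20), RAD51AP1 (0.11), RAD52 (0.24), RAD54L (0.028), RAD54B (0.084), MRE11 (0.18), EXO1 (0.059), WRN (0.061), ATM (0.18), FANCA (0.15), FANCG (0.20), FANCL (0.23), FANCM (0.25), FANCD2 (0.13), FANCI (0.13), PRKDC (0.17), TP53BP1 (0.25) and POLQ (0.19). XRCC4 (0.23) changed sign without a call. That scaling shifts every gene alike, since it holds the ribosomal protein genes constant.

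Without a filter on low counts 162 genes were lower past the fold over all genes, and the recombination and Fanconi medians were -0.19 and -0.091. With at least 10 counts in every library 1179 genes were higher and 43 lower past the fold, and these medians were -0.14 and -0.047. The cause was not tested. Leaving out each library in turn gave medians from -0.18 to -0.13 for recombination and from -0.13 to -0.047 for Fanconi genes, between 0 and 1 repair gene higher past the fold (FANCF, without the VPA replicate 2), 3 to 5 higher and 17 to 20 lower. The log2 difference of the ratio of BRCA1 to BARD1 ran from -0.048 to 0.063 and that of FANCD2 to FANCI from -0.015 to 0.0077, so that both changed sign. DESeq2 size factors, a prior count of 2 and an adjusted p of 0.01 left every summary count within 1.5 times its value.

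With the replicate number as a block, 5 repair genes were higher and 22 lower, and over all genes 5357 and 5100. RAD51D joined the higher calls, and MRE11 and ATM the lower. Deviations of same-numbered libraries correlated across genes at 0.12, 0.016 and 0.065, so that the numbers were not read as pairs. Untreated replicate 2 correlated best with VPA replicate 3 (0.031).

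FANCF had the fewest counts of the 42, at about 16 normalized counts in untreated cells. Among the other listed genes, POLA1, BRCC3 and FANCB had 0 counts in every library. H2AX and ATRIP averaged 6.59 and 6.61 normalized counts untreated, and none of these 5 genes was tested. Whether depth or the way reads were counted set these low values was not tested.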
